A study of Mus musculus with 23 samples.

Results

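Heart muscle genes were followed in whole mouse embryos at the stage when the heart first beats. The group holds 36 genes, listed by name, that encode contractile proteins, the proteins that hold the contractile apparatus together, calcium handling and rhythm proteins, natriuretic peptides and the transcription factors of the early heart. They were chosen by symbol in the array's probe annotation, with older symbols matched through the gene ID. Of the 36 genes, 34 had a probe, on 46 probes in all; no probe was listed for Nppa (atrial natriuretic peptide) or Hcn4 (a pacemaker channel). Tests were possible for 28 of these genes, on 36 probes, out of 12651 genes and 21979 probes tested on the array, which names 18069 genes on 36227 probes.

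The arrays were 1-colour CodeLink arrays, on which biotin-labelled cRNA is stained with a fluorescent streptavidin. Matings of p53 heterozygous mice gave the embryos, which were at day 8.5 and were kept for 10 minutes in a water bath at 43 °C (heat) or 38 °C (control). Each array carried the RNA of 1 pool of 3 to 7 whole embryos that shared genotype and bath. The 6 groups were p53 null heat (3 pools), p53 heterozygous heat (4 pools), p53 wildtype heat (4 pools), p53 null control (4 pools), p53 heterozygous control (4 pools) and p53 wildtype control (4 pools), with pools named A to D. Nothing in the labels says which litters entered which pool, so p-values reflect how much these pools varied and may miss variation between litters, and the time between bath and collection is not given in the sources used here. RNA came from the whole embryo, not from the heart.

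Heart muscle cells contract through the sarcomere, in which thick filaments of myosin pull on thin filaments of actin that carry troponin, the calcium switch. Titin, alpha-actinin and their partners anchor both filaments, and calcium released through the ryanodine receptor starts each beat. In the mouse the first heart muscle cells arise from mesoderm under the control of Nkx2-5, Gata4, Tbx5, Mef2c and Hand factors, and a second population of progenitors that express Isl1 adds cells to both ends of the heart tube. Several of the 36 genes are also active outside the heart, among them Acta2 in smooth muscle, Acta1 and Tnni1 in skeletal muscle and Isl1 in motor neurons. In a whole embryo, fewer heart cells and less RNA per heart cell cannot be told apart.

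Values below are normalized intensities, the deposited probe brightness brought to a common distribution across arrays, and differences are on the log2 scale, the first-named group minus the second, with the standard error of the fit after ±. A gene with several probes is represented by its brightest. Adjusted p-values come from limma with Benjamini-Hochberg adjustment over all tested probes, and a gene was called where the adjusted p was below 0.05. Levels were not compared between genes, and where a gene has a pair of probes, only how the difference between them varied over the pools was read.

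Heart muscle transcripts were measured in every pool. For 21 of the 28 tested genes the probe lay above the 40th percentile of its array on all 23 arrays, among them Myl2, Myl4, Tnnt2, Actc1, Nkx2-5, Gata4 and Tbx5. Actc1, cardiac actin, had intensities of 100 to 113 in null heat pools, 101 to 123 in heterozygous heat pools and 75.1 to 117 in wildtype heat pools, against 96.3 to 111 in null control, 110 to 122 in heterozygous control and 103 to 119 in wildtype control pools. Summed over the 26 tested members with a value on every array, the intensity was 387 to 432 in null heat, 374 to 415 in heterozygous heat and 313 to 436 in wildtype heat pools, against 361 to 404, 399 to 469 and 395 to 455 in null, heterozygous and wildtype control pools. Both sets of ranges overlapped between baths in each genotype. Bright probes weigh most in such sums, here that of Actc1 above all.

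Some pools stood apart from others of their group. Hspa1a, the heat-inducible Hsp70 chaperone gene, was at 78.7 to 123 in 4 of the 11 heat pools (wildtype heat A, C and D and null heat B) and at 0.877 to 2.1 in the other 7, against 0.496 to 1.04 in the 12 control pools. Cdkn1a, a p53 target, was at 5.41 and 5.25 in heterozygous control A and B, and at 1.29 and 1.45 in C and D, so that A and B stood apart from C and D. A and B lay in the range of wildtype control pools (4.54 to 6.08), and C and D in that of null control pools (1.07 to 1.47). In the heat bath Cdkn1a was at 9.85 to 34.2 in wildtype pools, and at 3.93, 4.65 and 1.23 in null pools A to C. No probe for the p53 gene itself was tested, so the genotype labels were not checked by it. The deposited control columns have 7576 to 11666 empty cells each and the heat columns code missing values in another way, so that bath and array processing cannot be told apart.

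Heat exposure was set against the control bath to see which heart transcripts differed after the bath in each genotype. Nppb, which encodes B-type natriuretic peptide, a hormone of stretched heart muscle, was lower after heat in heterozygous embryos and in the mean of the 3 genotypes, and it was the one heart gene called in either. No heart gene was called in null or wildtype embryos alone, where 6.34% and 3.6% of all genes were; limma had 4 and 3 heart genes at an unadjusted p below 0.05 there. Thick and thin filament genes lay mostly below 0 in heterozygous and wildtype embryos and mostly above 0 in null embryos. The largest of these differences was that of Tnnc1 in null embryos, 0.88 ± 0.37. By their brightest probes both calcium genes were below 0 in heterozygous and wildtype embryos, and 1 of the 2 was above 0 in null embryos. The other tested Ryr2 probe was above 0 in heterozygous (0.29) and wildtype embryos (0.29) and below 0 in null embryos (-0.12). Most transcription factors lay above 0 in the mean of the genotypes. None of these genes was called.

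The promoter of Nppb is shown because Nppb was the called gene, and in rat heart cells the factor GATA4 is known to act on this gene through GATA motifs near its start. The RefSeq sequence (GRCm38.p6, chr4:147985650-147985949, plus strand, 250 bases before to 50 after the start) has GATA motifs (A or T before GATA and A or G after it, searched on both strands) at bases -95 to -90 and -84 to -79 and TATAAA at bases -31 to -26, all in capitals.
Nppb: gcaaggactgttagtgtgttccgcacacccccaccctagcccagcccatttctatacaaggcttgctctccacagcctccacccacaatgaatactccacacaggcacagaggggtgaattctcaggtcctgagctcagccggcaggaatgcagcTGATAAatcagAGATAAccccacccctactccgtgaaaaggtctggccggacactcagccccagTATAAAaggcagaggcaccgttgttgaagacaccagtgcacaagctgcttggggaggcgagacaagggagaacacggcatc
A GATA motif was found in 32.5% of the 40 promoters listed for 32 of the 36 genes and in 29.8% of all 32851 promoters of the same length, and TATAAA in 27.5% and 13.6%. The match describes the letters, and no measurement here bears on binding to them.

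Nppb had an intensity of 1.44, 2.46, 1.62 and 1.75 in heterozygous heat pools A to D, against 4.25, 3.96, 4.61 and 4.21 in heterozygous control pools. All 4 heat pools lay below all 4 control pools. The difference was -1.25 ± 0.29, 0.419 times the control level (95% interval of the log2 difference -1.86 to -0.64; limma adjusted p = 0.024). Of all genes, 3.08% were called in this comparison and 2.21% were called lower, and of the 28 heart genes 1 was, lower. Hspa1a was at 1.49 to 2.09 in these 4 heterozygous heat pools, against 0.496 to 0.807 in heterozygous control pools. In the 4 heat pools of high Hspa1a, Nppb was at 2.02, 6.48 and 3.46 (wildtype heat A, C and D) and 2.83 (null heat B). In the other heat pools Nppb was at 1.39 to 2.46. The part of the Hspa1a level in the Nppb difference was not tested.

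In wildtype embryos Nppb was at 2.02, 1.39, 6.48 and 3.46 in heat pools A to D, against 4.61, 4.14, 5.33 and 4.56 in control pools. Heat pools A, B and D lay below every control pool, and heat pool C lay above them all. The difference was -0.72 ± 0.29 (limma adjusted p = 0.2); without wildtype heat C it was -1.12 ± 0.23 (limma adjusted p = 0.011), and without wildtype heat B, the pool of low Hspa1a, -0.38 ± 0.26 (limma adjusted p = 0.45). In null embryos it was at 2.44, 2.83 and 1.85 in heat pools, against 2.75, 2.91, 3.94 and 3.66 in control pools, groups that overlap through heat B and control A. The null difference was -0.49 ± 0.32 (limma adjusted p = 0.33).

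Over the 3 genotypes the mean difference in Nppb was -0.82 ± 0.18 (limma adjusted p = 0.003), a comparison in which 15% of all genes were called and 9.19% were called lower, and 1 of the 28 heart genes was, lower. Of the 11 heat pools, wildtype heat C held the highest value and wildtype heat B the lowest. The call held in all 33 alternative settings and left-out pools, with differences of -0.95 to -0.71. The call in heterozygous embryos was lost without any 1 of heterozygous control A, C or D (limma adjusted p = 0.06, 0.064 and 0.056) or heterozygous heat A or C (limma adjusted p = 0.096 and 0.073). Whether the heat difference in Nppb differed between genotypes was tested directly, and it did not pass: null minus wildtype was 0.24 ± 0.43 (limma adjusted p = 0.76) and heterozygous minus wildtype -0.53 ± 0.42 (limma adjusted p = 0.91).

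**Figure D1:**
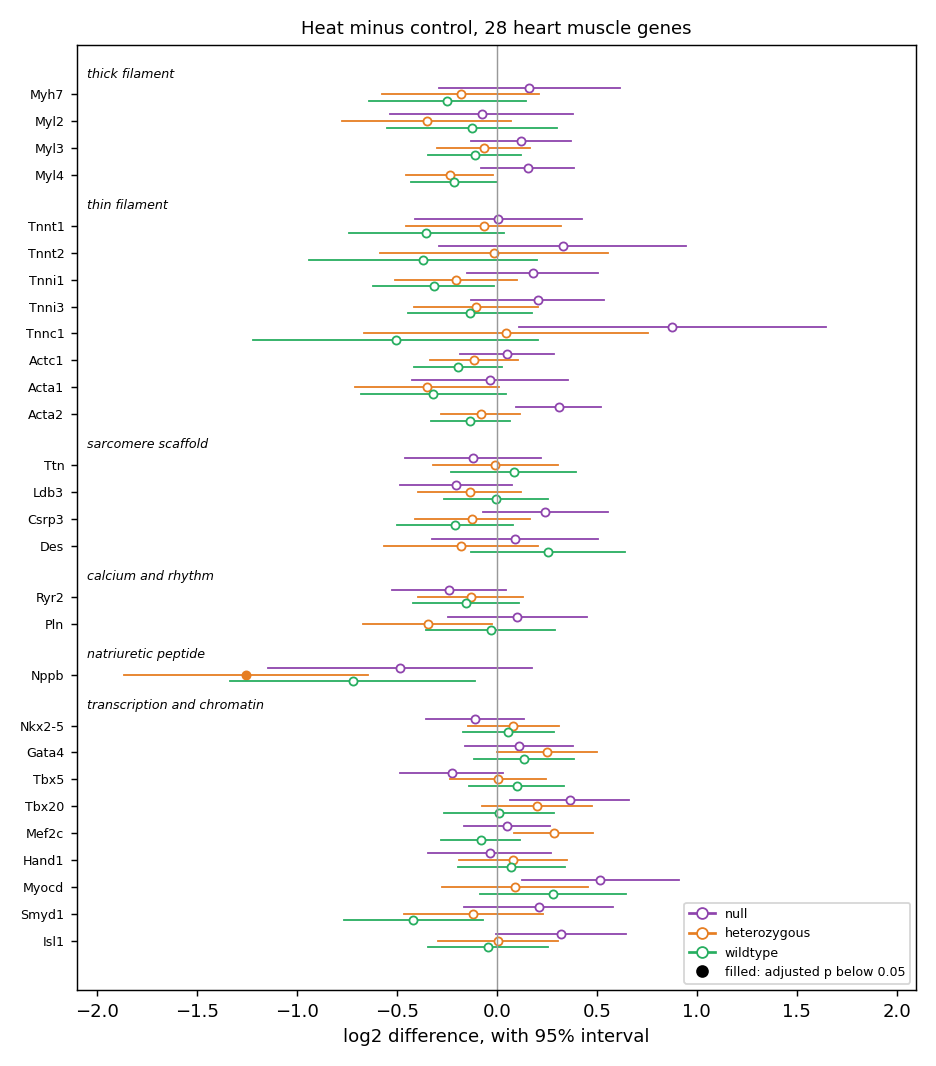
Log2 difference of heat minus control for each of the 28 tested heart muscle genes, grouped by role, with 95% intervals, in null (purple), heterozygous (orange) and wildtype (green) embryos; filled points have an adjusted p below 0.05. The heterozygous point of Nppb, at -1.25, is the filled one, and the 8 thin filament genes all lie below 0 in wildtype embryos.

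The thick filament genes differed little with heat. Myh7 (slow myosin heavy chain), Myl2, Myl3 and Myl4 (ventricular, ventricular and atrial light chains) had differences of -0.08 to 0.16 in null, -0.35 to -0.07 in heterozygous and -0.25 to -0.11 in wildtype embryos, and none was called. Myl4 had intensities of 41.8, 41.6, 41.9 and 39.6 in heterozygous heat pools, against 52.3, 57.3, 43.9 and 42.2 in heterozygous control pools. Its groups did not overlap, and the difference was -0.24 ± 0.10 (limma adjusted p = 0.27). Myl2 was at 10.2 in wildtype heat A and 20.8 to 25.9 in wildtype heat B, C and D, against 17.3 to 24.2 in wildtype control pools.

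Thin filament genes lay on opposite sides of 0 in wildtype and null embryos. All 8 (the troponins Tnnt1, Tnnt2, Tnni1, Tnni3 and Tnnc1 and the actins Actc1, Acta1 and Acta2) had negative differences with heat in wildtype embryos, of median -0.32 and range -0.51 to -0.13. In null embryos 7 of the 8 were positive, with a median of 0.19 and a range of -0.04 to 0.88. In heterozygous embryos 7 of 8 were negative, with a median of -0.09. None of the 8 was called in any genotype, and over all tested genes the medians were -0.03 in wildtype, -0.01 in null and -0.00 in heterozygous embryos.

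Tnni1, slow skeletal troponin I and the main form in the early heart, had intensities of 26.8, 34.6, 36.6 and 36.9 in wildtype heat pools, against 51.7, 37.2, 40.1 and 39 in wildtype control pools. All heat pools lay below all control pools, with pool A lowest, and the difference was -0.32 ± 0.15 (limma adjusted p = 0.26). With each array only centred on its median it was -0.41 ± 0.11 (limma adjusted p = 0.038). With the values left as deposited, Tnni1 (-0.53), Actc1 (-0.51), Myl4 (-0.45) and Acta2 (-0.37) were called lower in wildtype heat pools; on that scale the median over all probes was itself -0.12, against 0.01 after normalization. Acta1, skeletal actin, was at 7.34, 8.99, 15.5 and 13.4 in wildtype heat pools, against 14.6, 13.8, 12.6 and 13 in control pools, with pools A and B low and pool C above every control pool.

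Tnnc1, the calcium-binding troponin C of heart and slow muscle, had the largest standard errors of the thin filament genes. It was at 4.8, 7.75 and 5.96 in null heat pools, against 3.51, 2.86, 3.64 and 3.22 in null control pools, groups that did not overlap. The difference was 0.88 ± 0.37 (limma adjusted p = 0.14). In wildtype embryos it was at 5.4, 8.25, 2.23 and 1.89 in heat pools, against 6.02, 5.07, 4.75 and 5.28 in control pools. Wildtype heat B thus lay above all control pools, heat A among them, and heat C and D below all of them. Null minus wildtype in the heat difference was 1.38 ± 0.51 (limma adjusted p = 0.14), and without wildtype heat B it was 1.77 ± 0.43 (limma adjusted p = 0.04).

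Cardiac troponin T and a light chain probe showed the same low pools. Tnnt2 was at 11.2, 13.7, 5.3 and 4.11 in wildtype heat pools A to D, against 11.5, 8.62, 8.63 and 10.9 in wildtype control pools. The dimmer probe of Myl3 was at 3.94, 5.84, 2.85 and 2.26 in wildtype heat pools, where the brighter Myl3 probe was at 23.1, 31.8, 36.1 and 34.9. The 2 probes of Myl3 therefore ran opposite ways in pools C and D: the dimmer minus the brighter was -3.95 in wildtype heat D and -2.31 in heterozygous heat D, the ends of the range over 23 pools. What sets wildtype heat C and D apart on these probes was not tested.

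**Figure D2:**
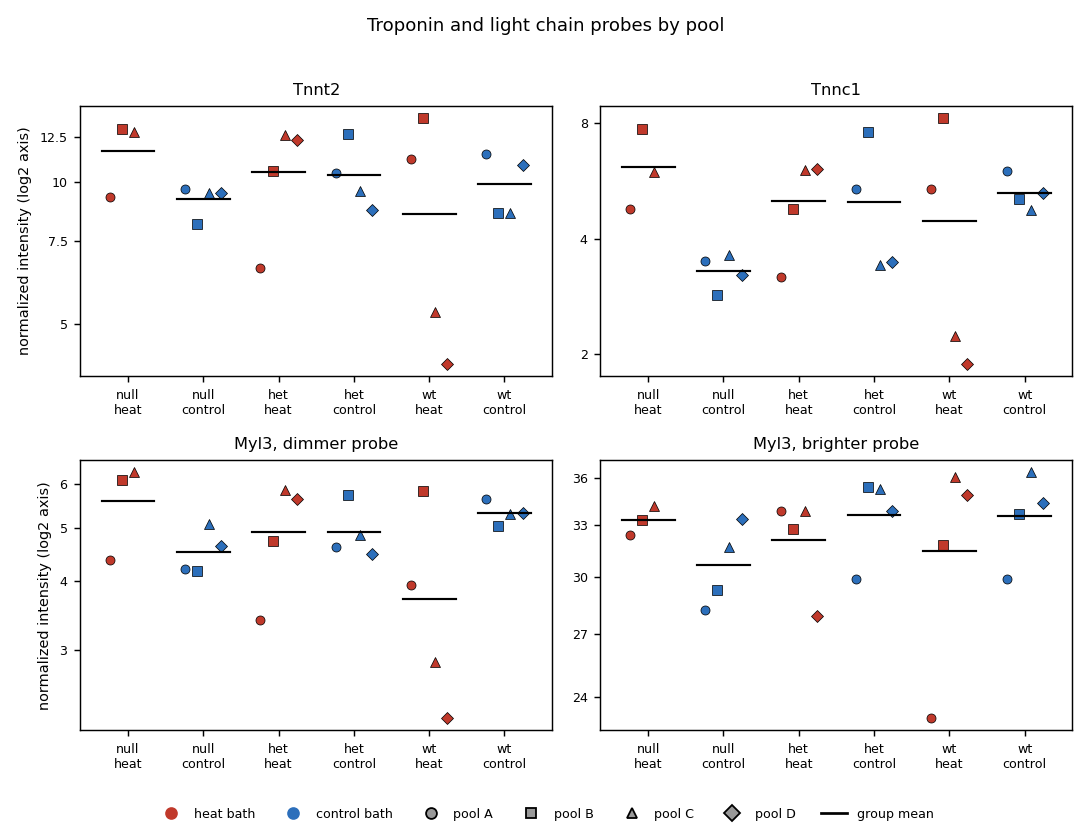
Normalized intensity (log2 axis) of Tnnt2, Tnnc1 and both Myl3 probes in each pool; red is the heat bath, blue the control bath, the marker shape gives the pool letter, and the line is the group mean. Wildtype heat C and D are the lowest points of Tnnt2 (5.3 and 4.11), Tnnc1 (2.23 and 1.89) and the dimmer Myl3 probe (2.85 and 2.26), but not of the brighter Myl3 probe.

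Promoters of 2 actin genes and of Myl7, the atrial regulatory light chain, are shown because the CArG box, the site of serum response factor known from muscle genes, was more frequent among the heart genes' promoters than in the whole table. It was searched on both strands and found in 17.5% of the 40 promoters of these genes (7 promoters, of Acta1, Actc1, Ldb3, Myl3, Myl7 and Myom1), and in 1.63% of all 32851. In RefSeq GRCm38.p6, Actc1 lies at chr2:114052826-114053125, Acta1 at chr8:123894726-123895025 and Myl7 at chr11:5898733-5899032, all on the minus strand and printed 5′ to 3′ along the gene. Capitals mark the CArG box, at bases -47 to -38, -73 to -64 and -61 to -52, and TATAAA in the first 2, at bases 34 to 39 after the listed start of Actc1 and -7 to -2 of Acta1.
Actc1: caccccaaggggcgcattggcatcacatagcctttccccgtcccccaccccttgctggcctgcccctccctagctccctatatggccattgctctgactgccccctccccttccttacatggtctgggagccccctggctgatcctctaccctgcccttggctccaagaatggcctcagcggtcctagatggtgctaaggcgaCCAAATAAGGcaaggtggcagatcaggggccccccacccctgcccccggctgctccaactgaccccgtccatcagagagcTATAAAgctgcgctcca
Acta1: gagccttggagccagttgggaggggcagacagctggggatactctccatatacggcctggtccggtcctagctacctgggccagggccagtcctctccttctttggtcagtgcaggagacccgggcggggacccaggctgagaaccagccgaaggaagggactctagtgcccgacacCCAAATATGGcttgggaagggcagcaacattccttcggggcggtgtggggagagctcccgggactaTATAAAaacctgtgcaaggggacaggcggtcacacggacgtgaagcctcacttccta
Myl7: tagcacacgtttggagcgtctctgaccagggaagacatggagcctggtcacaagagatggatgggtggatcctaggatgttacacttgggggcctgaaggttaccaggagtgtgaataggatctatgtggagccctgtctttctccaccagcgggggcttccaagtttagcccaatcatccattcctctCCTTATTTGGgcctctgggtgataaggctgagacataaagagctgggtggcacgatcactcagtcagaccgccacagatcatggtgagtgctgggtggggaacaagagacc
The M-CAT motif (CATTCC) was found in 27.5% of the 40 promoters and 14.7% of all. A pair of heat shock element units (GAANNTTC or TTCNNGAA) was found in 5% of them, those of Csrp3 and Hcn4, and in 15.1% of all. Actc1 and Acta1 were not called in any of the 12 comparisons.

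Scaffold and calcium genes showed no called difference with heat. Ldb3 (a Z-disc protein), Csrp3 (muscle LIM protein), Des (desmin, the muscle intermediate filament) and Ttn by its brightest probe had differences of -0.21 to 0.24 in null, -0.18 to -0.01 in heterozygous and -0.21 to 0.26 in wildtype embryos. Des was at 4.68, 4.9, 9.2 and 6.94 in wildtype heat pools, against 5.75, 4.39, 4.86 and 5.89 in wildtype control pools, so that pools C and D lay above every control pool. Ryr2, the ryanodine receptor, was -0.18 ± 0.08 in the mean of the genotypes (limma adjusted p = 0.14). By its other tested probe, a dimmer one, the mean was 0.16 ± 0.12 (limma adjusted p = 0.46). Pln, phospholamban, which restrains the calcium pump, was at 1.45, 0.912, 1.06 and 1.34 in heterozygous heat pools, against 1.41, 1.39, 1.74 and 1.43 in heterozygous control pools, a difference of -0.35 ± 0.16 (limma adjusted p = 0.28).

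Of the 9 tested genes of transcription and chromatin, 8 transcription factors and the methyltransferase Smyd1, 7 had a positive mean difference with heat, the median over all 9 being 0.08, and none was called by the probe that stands for the gene. Myocd, myocardin, the partner of serum response factor in heart and smooth muscle, was at 1.78, 2.18 and 1.7 in null heat pools, against 1.49, 1.39, 1.12 and 1.26 in null control pools, groups that did not overlap. The null difference was 0.52 ± 0.19 (limma adjusted p = 0.1) and the mean over genotypes 0.30 ± 0.10 (limma adjusted p = 0.068). The mean passed the threshold with the array's highest deposited value as a covariate (0.48, limma adjusted p = 0.0012), and in 4 other settings given in the closing section. Gata4 was 0.17 ± 0.07 in the mean (limma adjusted p = 0.14), and Nkx2-5, the earliest heart homeobox gene, 0.01 ± 0.06 (limma adjusted p = 0.95), with a 95% interval of -0.12 to 0.15.

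Tbx20, a T-box factor of the heart tube, gave different answers by probe. Its dimmer probe was at 1.89, 1.99 and 2.27 in null heat pools, against 1.56, 1.43, 1.7 and 1.73 in null control pools. In heterozygous embryos it was at 1.84, 1.89, 2.03 and 2 in heat pools, against 1.5, 1.46, 1.41 and 1.75 in control pools. In wildtype embryos it was at 1.68, 1.47, 2.26 and 2.22 in heat pools, against 1.24, 1.58, 1.45 and 1.5 in control pools. Heat and control did not overlap in null and heterozygous embryos, and in wildtype embryos heat B lay among the controls. The mean difference was 0.36 ± 0.07 (limma adjusted p = 0.0023), while by the brighter probe, which stands for the gene, it was 0.19 ± 0.08 (limma adjusted p = 0.12). With the gene's probes averaged, Tbx20 was called higher after heat (0.28 ± 0.06, limma adjusted p = 0.0046).

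**Figure D3:**
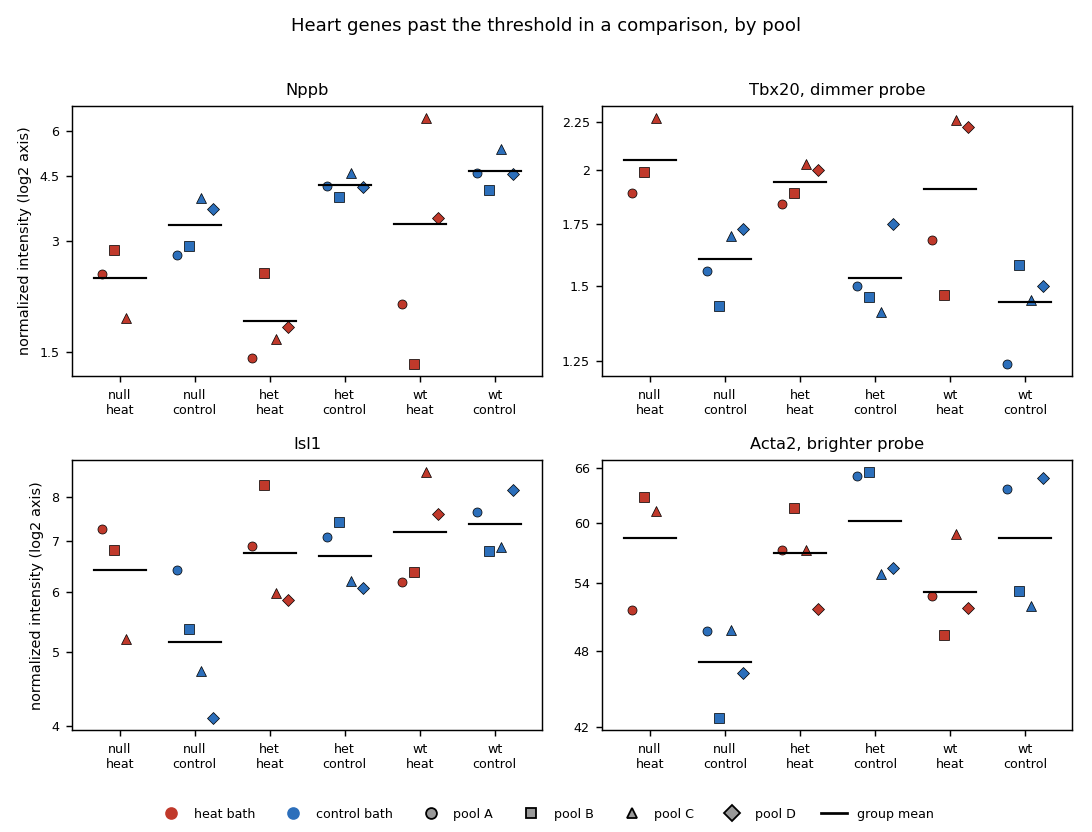
Normalized intensity (log2 axis) of Nppb, the dimmer Tbx20 probe, Isl1 and the brighter Acta2 probe in each pool; red is the heat bath, blue the control bath, the marker shape gives the pool letter, and the line is the group mean. Nppb is at 1.44 to 2.46 in heterozygous heat against 3.96 to 4.61 in heterozygous control pools, and Isl1 and Acta2 are lower in null control than in wildtype control pools.

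The size of the heat differences was bounded for most heart genes. In the mean over genotypes, the 95% interval lay within 1.5-fold either way for 27 of the 28 genes, all but Nppb. By genotype it lay within 2-fold for 26 genes in null, 27 in heterozygous and 26 in wildtype embryos; Nppb was outside in each, and Tnnc1 outside in null and wildtype. At an unadjusted p below 0.05 limma had 4 genes in null, 5 in heterozygous, 3 in wildtype embryos and 6 in the mean. The median difference over the 28 genes was 0.11 in null, -0.09 in heterozygous and -0.13 in wildtype embryos, against -0.01, -0.00 and -0.03 over all tested genes. Heat and control groups did not overlap for 5, 3 and 3 heart genes in null, heterozygous and wildtype embryos, where 24.5%, 10.9% and 13.3% of all genes did not overlap.

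Null embryos were set against wildtype embryos to see which heart transcripts differed without p53. In the control bath, Isl1 and Acta2 were lower in null embryos, 2 of 28 heart genes, where 8.5% of all genes were called and 5.01% were called lower. Isl1 marks the progenitors of the second heart field, and Acta2, smooth muscle actin, is expressed in the early heart tube as well. Of the 28 genes 20 had negative differences, with a median of -0.11, against 0.04 over all genes. In the heat bath no heart gene was called, where 0.49% of all genes were, and limma had 1 heart gene at an unadjusted p below 0.05.

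Isl1 was at 6.42, 5.37, 4.72 and 4.1 in null control pools, against 7.64, 6.78, 6.87 and 8.16 in wildtype control pools. The groups did not overlap, and heterozygous control pools, at 7.08, 7.41, 6.2 and 6.08, reached into both ranges. The null minus wildtype difference was -0.53 ± 0.14, 0.693 times the wildtype level (limma adjusted p = 0.03). In the heat bath Isl1 was at 7.25, 6.81 and 5.2 in null pools, against 6.18, 6.37, 8.61 and 7.59 in wildtype pools, with a difference of -0.16 ± 0.16 (limma adjusted p = 0.56). Null heat pools A and B thus lay above all null control pools, but the null difference between baths was 0.32 ± 0.16 (limma adjusted p = 0.2).

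The Isl1 call in the control bath was kept in 24 of 33 alternatives. It was lost without any 1 of the wildtype control pools (limma adjusted p = 0.051 to 0.085) or of null control B, C or D (limma adjusted p = 0.063 to 0.11). It was also lost with 2 covariates tried singly, the array's highest deposited value (-0.46, limma adjusted p = 0.064) and an array score for the division of the heterozygous control pools (-0.32, limma adjusted p = 0.5). That score was made from these same arrays, and was at 3.67 to 23.8 in wildtype control and -34 to -13.7 in null control pools. A fit with it therefore cannot tell the division from genotype in the control bath. The Isl1 promoter is shown because Isl1 was called and Gata4, one of the listed factors, belongs to the family that reads the GATA motif. In RefSeq GRCm38.p6 it lies at chr13:116309639-116309938 on the minus strand, with GATA motifs in capitals at bases -115 to -110 and 11 to 16 from the start. Of all promoters 29.8% have a GATA motif, and no measurement here bears on binding to it.
Isl1: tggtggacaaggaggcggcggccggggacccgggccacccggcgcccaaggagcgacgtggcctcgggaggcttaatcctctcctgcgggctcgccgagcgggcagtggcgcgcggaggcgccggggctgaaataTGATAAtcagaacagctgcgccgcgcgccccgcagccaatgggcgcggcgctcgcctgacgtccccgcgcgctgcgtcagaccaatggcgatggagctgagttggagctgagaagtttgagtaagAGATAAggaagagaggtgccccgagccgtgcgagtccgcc
Gata4 itself was at 3.72, 3.76, 3.85 and 3.42 in null control pools, against 3.04, 4.04, 3.88 and 3.75 in wildtype control pools, a difference of 0.01 ± 0.12 (limma adjusted p = 0.96). The part of Gata4 in the Isl1 difference was not tested.

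Acta2 was at 49.7, 42.7, 49.8 and 46.2 in null control pools, against 63.6, 53.3, 51.9 and 64.9 in wildtype control pools and 65.1, 65.5, 54.9 and 55.4 in heterozygous control pools. All null control pools lay below all others of the control bath. The null minus wildtype difference was -0.31 ± 0.10, 0.809 times the wildtype level (limma adjusted p = 0.049), and by the other Acta2 probe -0.24 (limma adjusted p = 0.28). The call was kept in 12 of 33 alternatives, with adjusted p-values of 0.0039 to 0.61. Null minus heterozygous was -0.35 ± 0.10 (limma adjusted p = 0.15). In the heat bath Acta2 was at 51.5, 62.7 and 61.2 in null pools, against 52.8, 49.3, 58.8 and 51.7 in wildtype pools, and the groups overlapped. The smooth muscle markers, summed over the 6 with a value on every array, were at 61.5 to 74.9 in null control pools and 66.2 to 77 in wildtype control pools, and their part in the Acta2 difference was not tested.

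Other heart genes lay below wildtype in null control pools without being called. Smyd1, a muscle methyltransferase, was at 1.21, 0.997, 0.807 and 0.845 in null control pools, against 1.53, 1.16, 1.08 and 1.53 in wildtype control pools, a difference of -0.46 ± 0.17 (limma adjusted p = 0.084). By the other tested Smyd1 probe it was 0.01 ± 0.12 (limma adjusted p = 0.97). Tnnc1 was -0.68 ± 0.34 (limma adjusted p = 0.22), Nppb -0.50 ± 0.29 (limma adjusted p = 0.28), Tnni1 -0.31 ± 0.15 (limma adjusted p = 0.18) and Mef2c -0.23 ± 0.10 (limma adjusted p = 0.14). With Isl1 and Acta2, these 4 make up the 6 heart genes whose null and wildtype control pools did not overlap, where 26.4% of all genes did not overlap. With the fit made on the 8 arrays of this comparison alone, Tnnc1, Nppb and Tnni1 were called too, 5 of 28 lower, where that fit called 21.6% of all genes and 10.5% lower.

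**Figure D4:**
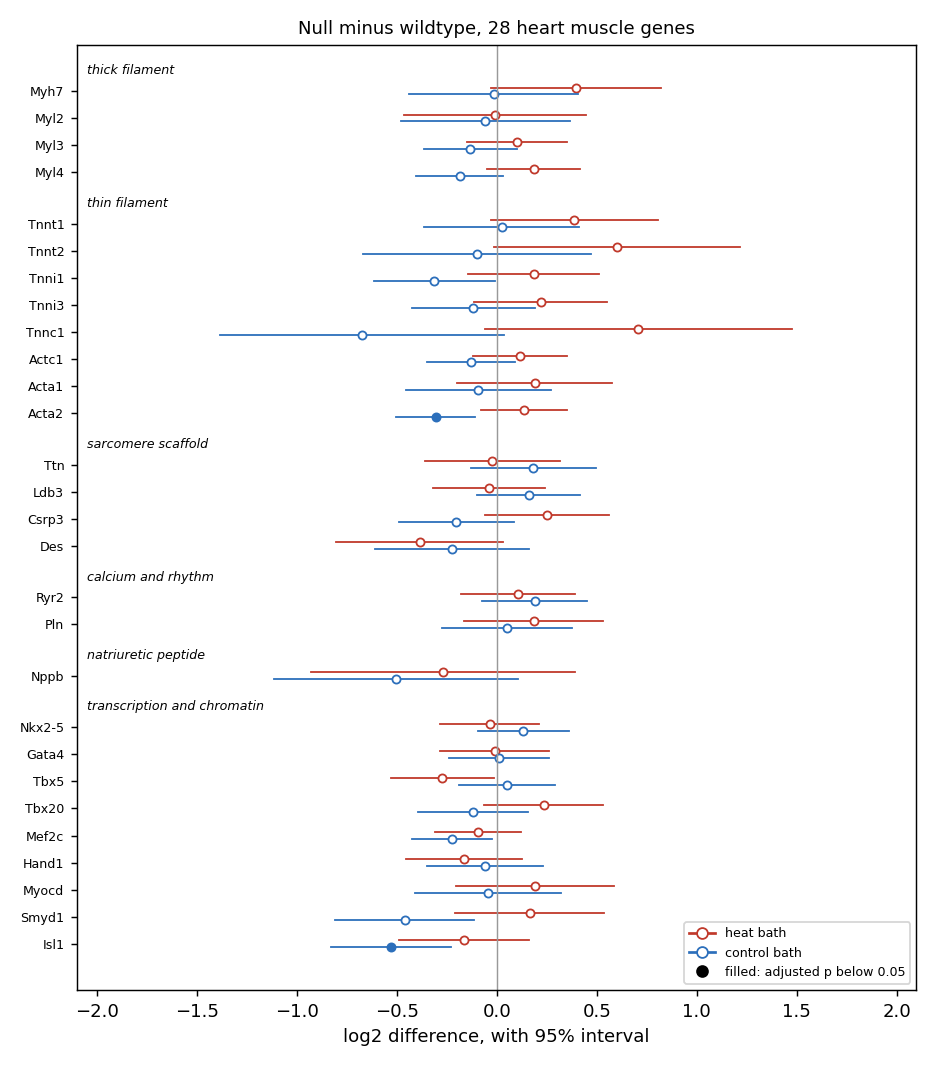
Log2 difference of null minus wildtype for each of the 28 tested heart muscle genes, grouped by role, with 95% intervals, in the heat bath (red) and the control bath (blue); filled points have an adjusted p below 0.05. Isl1 at -0.53 and Acta2 at -0.31 in the control bath are the filled points, and the thin filament genes lie above 0 in the heat bath.

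In the heat bath the 8 thin filament genes were all above 0 in null minus wildtype, with a median of 0.21 and a range of 0.12 to 0.71, while in the control bath 7 of 8 were below 0, with a median of -0.12. Their heat difference was larger in null than in wildtype embryos in all 8 (median 0.40, range 0.24 to 1.38), and none was called, where 0.68% of all genes were. It equals the heat bath difference minus the control bath difference just given, so its direction is not a further result. The 2 comparisons behind this difference share no pool, but the 8 genes share their pools, so the agreement among them is not a count of independent results. Over all 28 heart genes the median of this difference was 0.24, against 0.02 over all genes, with 6 genes at an unadjusted p below 0.05 by limma. The interval of the difference lay within 1.5-fold for 8 of the 28 genes, so differences of that size between the genotypes' responses could not be bounded for the other 20.

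The remaining comparisons gave no called heart gene. In the control bath heterozygous against wildtype had 0 of 28 (0% of all genes, 2 heart genes at an unadjusted p below 0.05 by limma) and null against heterozygous 0 of 28 (0.0395% of all genes, 4 at that p). In the heat bath heterozygous against wildtype had 0 of 28 (0.142% of all genes, 2 at that p) and null against heterozygous 0 of 28 (0.0079%, none at that p). The heat difference of heterozygous minus wildtype embryos had 0 of 28 (0% of all genes, 1 at that p). Mef2c, a MADS factor of heart progenitors, was at 3.37, 2.81, 3.16 and 3.04 in heterozygous control pools, against 3.69, 4.24, 3.76 and 3.68 in wildtype control pools, groups that did not overlap. Its difference was -0.31 ± 0.10 (limma adjusted p = 0.82), with the smallest unadjusted p of a heart gene there. Groups that did not overlap were found for 1 heart gene in heterozygous against wildtype controls (4.17% of all genes), 2 in null against heterozygous controls (7.41%), none in null against wildtype heat pools (10.8%) or heterozygous against wildtype heat pools (4.28%), and 1 in null against heterozygous heat pools (4.44%), where Tnni3, cardiac troponin I, was at 12.5, 9.97 and 11.5 in null and 9.84, 9.21, 9.59 and 9.75 in heterozygous pools.

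A second Ttn probe behaved unlike the first. Titin had 6 probes, 4 of them tested, and the second brightest was at 3.54, 3.26 and 1.12 in null heat, 6.58, 7.34, 3.05 and 0.801 in heterozygous heat and 8.39, 7.78, 9.63 and 7.38 in wildtype heat pools. In the control bath it was at 2.12, 2.59, 1.79 and 1.18 in null, 7.98, 6.09, 1.82 and 1.68 in heterozygous and 7.06, 6.29, 5.67 and 5.83 in wildtype pools. All null pools lay below all wildtype pools in both baths, and heterozygous pools spread across both ranges. Null minus wildtype was -1.74 ± 0.55 in the control bath (limma adjusted p = 0.053) and -1.81 ± 0.60 in the heat bath (limma adjusted p = 0.13). By the brightest Ttn probe the same differences were 0.18 ± 0.15 and -0.02 ± 0.16, neither called. By the other tested Ttn probes they were -0.31 and -0.03 in the control bath and -0.28 and -0.10 in the heat bath, none called. A further Ttn probe, not tested across the 6 groups, was at 0.339 to 0.57 in null heat and 0.682 to 1.09 in wildtype heat pools. In heterozygous heat pools A to D it was at 1.07, 0.847, 0.43 and 0.228. In the control bath it was at 0.383 and 0.593 in null B and C, against 0.431 to 0.882 in wildtype pools.

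The pools that were high on the second Ttn probe in the heterozygous control group, A and B, were those of high Cdkn1a given above. In heterozygous heat pools Cdkn1a was at 5.24, 4.96, 5.49 and 1.92, with pool D lowest on both probes. With the array score for that division as a covariate, null minus wildtype on the second Ttn probe was -0.38 ± 0.42 in the control bath (limma adjusted p = 0.82) and -1.77 ± 0.37 in the heat bath (limma adjusted p = 0.016). The score was made from these arrays with this probe included, and all wildtype control pools lay above all null control pools on it. The control bath value therefore cannot tell the division from genotype. Over the 23 pools the second minus the brightest Ttn probe ran between -3.89 in heterozygous heat D and -0.12 in wildtype heat A, a wider range than for any other heart gene with a pair of tested probes compared here. Which transcript the second probe reads was not tested.

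**Figure D5:**
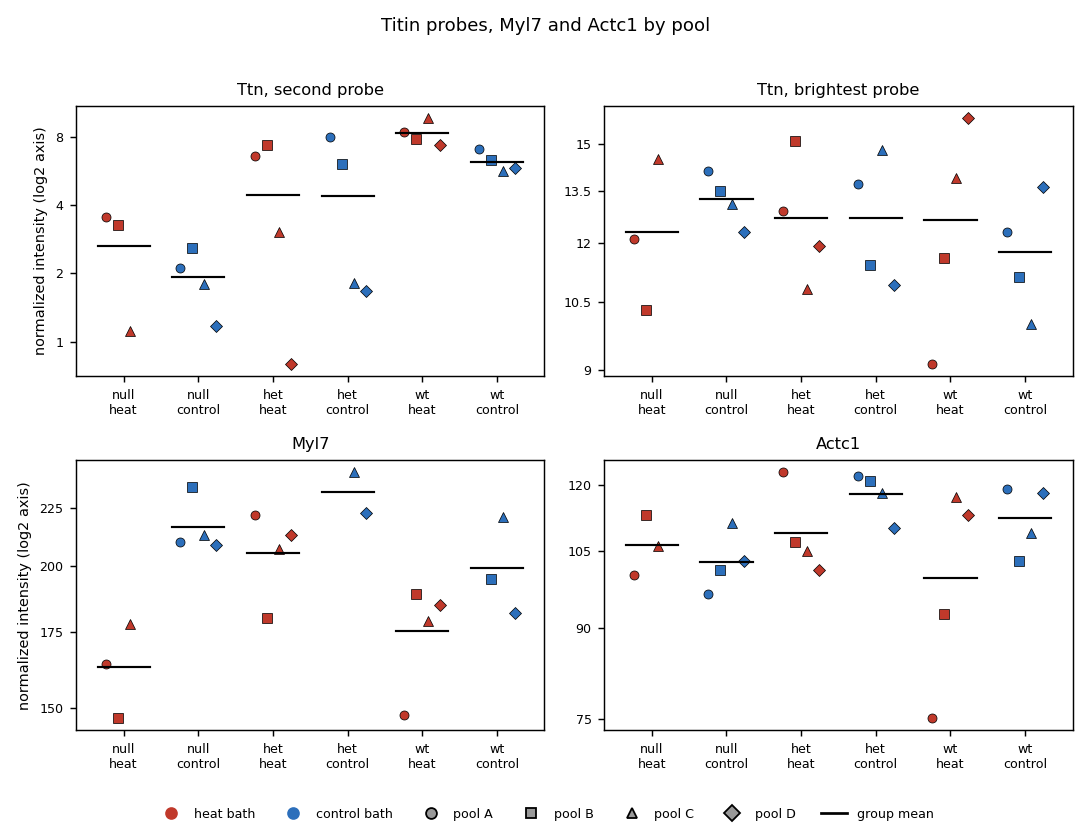
Normalized intensity (log2 axis) of the second and the brightest Ttn probe, Myl7 and Actc1 in each pool; red is the heat bath, blue the control bath, the marker shape gives the pool letter, and the line is the group mean of the pools with a value. The second Ttn probe is at 1.12 to 3.54 in null heat against 7.38 to 9.63 in wildtype heat pools, and Myl7 lacks a point in 3 control pools.

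Of the listed genes with a probe, 6 could not be tested across the groups. Myl7 had too few control values: its cells are empty in wildtype control A and heterozygous control A and B, the 3 arrays whose highest deposited value was lowest (192.8, 209.3 and 181.5, on arrays that otherwise reach up to 488.3). It was at 164, 147 and 178 in null heat, 222, 180, 207 and 213 in heterozygous heat and 148, 189, 179 and 185 in wildtype heat pools. In a fit of the 11 heat arrays alone, null minus wildtype was -0.12 ± 0.10 (limma adjusted p = 0.54), heterozygous minus wildtype 0.18 ± 0.10 (limma adjusted p = 0.6) and null minus heterozygous -0.30 ± 0.10 (limma adjusted p = 0.98). Null and heterozygous heat pools did not overlap for Myl7, and no heart gene was called in that fit, where 0.1%, 0% and 0% of all genes were.

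The other 5, Actn2, Myh6, Casq2, Hand2 and Myom1, were not tested across the 6 groups for their empty control cells. The probes of Myh6, Casq2, Hand2 and Myom1 were also too dim. Actn2, alpha-actinin of the Z-disc, lay above the 40th percentile on 9 arrays and was at 0.714, 0.709 and 0.418 in null heat, 0.649, 1.07, 1.34 and 0.4 in heterozygous heat and 0.687, 0.939, 0.988 and 0.675 in wildtype heat pools. It was empty in all null control pools and in heterozygous control C and D, and it was at 1.43 and 2.17 in heterozygous control A and B and at 0.98 to 1.59 in wildtype control pools. Among heat pools null minus wildtype was -0.54 ± 0.44 (limma adjusted p = 0.52). Myh6, Casq2, Hand2 and Myom1 were on no array above the 40th percentile, with heat pools at 0.0993 to 0.334 for Myh6 (alpha myosin heavy chain) and 0.238 to 0.375 for Hand2, and they were not analysed further.

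Other heart genes, a list of 76 further genes of the heart field, conduction and sarcomere of which 57 were tested, was read in the same comparisons. With heat, Bmp4 (0.69, limma adjusted p = 0.0086) and Bmp2 (0.50, limma adjusted p = 0.016), growth factors that induce heart mesoderm, rose in null embryos, 2 of 57 where 6.34% of all genes were called. Kcnj5, a subunit of the atrial potassium channel, rose in heterozygous embryos (0.33, limma adjusted p = 0.038), and Mef2a, a relative of Mef2c, rose in wildtype embryos (0.43, limma adjusted p = 0.034), 1 of 57 in each where 3.08% and 3.6% of all genes were called. Bmp4, Bmp2 and Kcnj5 were also called higher in the mean of the 3 genotypes (0.37, 0.27 and 0.21), where 15% of all genes were called. In null control pools 6 of 57 were lower than in wildtype control pools and 1 was higher, where 8.5% of all genes were called and 5.01% lower. Among the lower genes were Popdc2, a membrane protein of heart muscle (-1.73, limma adjusted p = 0.013), and Bmp4 (-0.53, limma adjusted p = 0.021). The median over the 57 genes was 0.08 in null, -0.07 in heterozygous and -0.10 in wildtype embryos with heat, and -0.04 for null against wildtype in the control bath.

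Markers of other tissues were read in the same comparisons. The yolk sac endoderm list, of which 18 genes were tested, had a median heat difference of 0.46 in null, 0.62 in heterozygous and -0.64 in wildtype embryos. In that order 16, 18 and 0 of the 18 genes were above 0, and 0, 0 and 1 were called. The shares of all genes called were 6.34%, 3.08% and 3.6%. Summed over the 14 yolk sac genes with a value on every array, the intensity was 255 to 406 in null heat, 326 to 510 in heterozygous heat and 181 to 426 in wildtype heat pools, against 189 to 341, 182 to 348 and 285 to 446 in null, heterozygous and wildtype control pools. In heterozygous control pools the list's mean log2 level was 0.22 and 0.06 above that of all pools in A and B, and -0.53 and -0.74 from it in C and D. Afp, its defining marker, was at 8.84 to 45.5 over all pools. Smooth muscle markers, 7 tested, had 1 call with heat in null embryos (Mylk, -0.68, limma adjusted p = 0.02) and 1 in wildtype embryos (Cnn1, -0.54, limma adjusted p = 0.01), where 6.34% and 3.6% of all genes were called. They had none in null against wildtype controls, where their median was -0.04. Null control pools were below wildtype control pools for 3 called genes of 13 tested from endothelium, Cldn5, Cd34 and Pecam1 (-0.88, limma adjusted p = 0.024), while 7 of the 13 were above 0 and the median was 0.09. They were also below for 2 of 11 primitive red cell genes, Klf1 (-1.10, limma adjusted p = 0.011) and Epor (-0.92, limma adjusted p = 0.017), with 10 of the 11 below 0 and a median of -0.11. Over all genes 5.01% were called lower there, and the median was 0.04. In the mean heat difference, where 15% of all genes were called and 9.19% lower, the calls were 3 higher and 2 lower of 57 other heart genes, 2 higher and 1 lower of 11 primitive red cell genes, 3 lower of 13 endothelial, 2 lower of 7 smooth muscle, 5 lower of 11 somite, 3 lower of 12 neural tube and 0 of 18 yolk sac genes. Myh11, the defining marker of smooth muscle, had too few control values to be tested, and was at 0.285 to 0.675 where it had a value. Myf5 (somites) and Sox2 (neural tube) were at 1.08 to 1.82 and 1.64 to 5.36. The part of these tissues in the heart results was not tested.

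Within the wildtype heat group, the heart genes of some pools lay mostly on the same side of the group mean. In wildtype heat A, 5 of 28 genes lay above the mean of the group, and in wildtype heat C 22 of 28 did. Over the heart genes wildtype heat A was -0.26 from the mean of all pools, lower than the other 22 pools, which ranged between -0.12 and 0.15. Wildtype heat A was also the lowest for Actc1 (75.1), Tnni1 (26.8), Myl2 (10.2) and Ryr2 (2.5) among all pools. Without that pool no heart gene was called in wildtype embryos with heat, as with it.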

How the data were processed

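The authors deposited 1 linear intensity per probe and array, per the labels from CodeLink arrays hybridised with biotin-labelled cRNA; how they were scanned, background-corrected, scaled and filtered is not stated in those sources. Empty cells and cells of -9999 were set to missing. Low values were raised to a floor, the 5th percentile of the positive values on that array, log2 was taken, and arrays were quantile normalized on the 18702 probes with a value on all 23, whose array medians spanned 0.336 on the log2 scale. Testing required 3 or more values per group and 3 or more arrays on which the probe exceeded the 40th percentile of the array. No depth applies to arrays, and their number limits the precision.

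Gene symbols came from the platform annotation, updated by gene ID through RefSeq: 21615 probes had 1 symbol, 681 several (none named from them) and 13931 none listed. The 6 group means were fitted in limma 3.58.1 (R 4.3.3) with an intensity trend over all 23 arrays, and 12 comparisons were taken from it; the steps were tested on simulated data. Null control C has no value for Myh7 and Hand1, which were fitted without it.

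Replicate letters in the labels recur in every group. Deviations from the group mean had a mean correlation of 0.089 over the 55 pairs of the same letter and -0.0295 over the 165 of different letters, so that the letters were not taken to pair the pools.

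The members and all lists were chosen with earlier results of these data known. All 36 heart genes may be named; of other lists, up to 4 genes of smallest p in a comparison or the defining marker, and Hspa1a and Cdkn1a as marks of single pools. Tests are those of all 12 comparisons and, for Myl7 and Actn2 alone, of the 11 heat arrays (22767 probes). Alternatives were other normalizations, filters, probe rules, covariates and leaving out each pool.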

Additional observations from a re-analysis of the deposited data

Results flagged for a closer look

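Among 138 combinations of a heart gene and a group of 4 pools, 11 held a pool whose gap to its nearest neighbour passed Dixon's limit for the group's whole range; chance gives about 1 in 20. The clearest was Myl4 in wildtype heat A, at 35.2 where the other pools of the group were at 42.4 to 42.6; Myl4 was also low in heterozygous heat D, at 39.6 against 41.6 to 41.9, and that pool was low for Myl3, at 27.9 against 32.8 to 33.9. In heterozygous heat A, Tbx20 was at 3.29 where the others were at 4.02 to 4.17, and Smyd1 was high at 1.31, against 1.03 to 1.06.

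Among control pools, Hand1, a transcription factor of the left ventricle and of extraembryonic tissue, was at 3.12 in wildtype control A, where the others were at 4.67 to 4.85. In wildtype control B, Mef2c was high at 4.24 (others 3.68 to 3.76) and Myocd low at 1.24 (others 1.37 to 1.4). Des was at 5.03 in heterozygous control B (others 5.56 to 5.63), Pln at 1.74 in heterozygous control C (others 1.39 to 1.43) and Tnnt2 at 8.16 in null control B (others 9.48 to 9.67).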

How the results depend on the processing

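None of the heart genes' calls turned its direction under the 33 alternatives run. Counts of called heart genes moved as follows, with the share of all genes called in the same fit in brackets. With values as deposited they were 4 (12.1%) for heat in wildtype embryos, 4 (17.4%) for heat in the mean of genotypes and 1 (5.6%) for null against wildtype controls, and with median centring 1 (5.7%), 2 (17.7%) and 1 (7.02%). Without the filter on dim probes null against wildtype controls had 1 (7.92%), and with a gene's probes averaged the mean heat difference had 2 (14.3%) and null against wildtype controls 1 (8.34%). With only the arrays compared, heat in null embryos had 1 (2.53%) and null against wildtype controls 5 (21.6%); with array weights the mean heat difference had 2 (17.8%) and null against wildtype controls 4 (29.3%). With the highest deposited value as covariate, heat in null embryos had 3 (23.8%), the mean heat difference 4 (28.3%) and null against wildtype controls 0 (4.79%). With the split score of the heterozygous control pools the mean had 2 (18.6%) and null against wildtype controls 0 (0.0316%). That score divides wildtype from null control pools, so the latter count cannot be read apart from genotype. With the replicate letter as a block the mean heat difference had 2 (15.6%), Myocd joining (0.28, limma adjusted p = 0.03); Myocd also passed with array weights (0.35), without heterozygous control B (0.36) and without heterozygous heat D (0.34). Leaving out 1 pool at a time gave 0 to 1 calls for heat in null, 0 to 2 in heterozygous, 0 to 1 in wildtype embryos and 1 to 3 in the mean, 0 to 2 for null against wildtype controls, 0 to 1 for null against heterozygous controls and 0 to 1 for the null minus wildtype heat difference. All others stayed at 0 when a pool was left out. A gene near the threshold can pass or miss it with any 1 pool, and empty control cells keep Myl7, Actn2 and 4 dim heart genes out of the comparisons across groups; the causes of these shifts were not tested.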
